A study of Mus musculus with 17 samples.

Results

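The comparison is between unirradiated wounded mouse skin sampled 6 days and 3 days after injury. It rests on 4 of the 17 libraries of the series, 2 from control skin at day 6 (replicates 1 and 2) and 2 from control skin at day 3 (replicates 1 and 3), and on the 13770 of 34140 listed genes that reached an FPKM of at least 1 in at least 2 of these 4 libraries. FPKM is the number of sequenced fragments per kilobase of gene length and scaled to the number of assigned fragments of the library. Of the 13770 genes, 12440 are protein coding, 131 reached the limit only through the day 6 libraries and 112 only through the day 3 libraries.

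All libraries were made from total RNA of skin of C57/BL6j mice, and the labels name no transgene or allele. Control animals were not irradiated, and other mice received ionizing radiation. The groups used here are control day 6 (2 libraries), control day 3 (2 libraries), control day 9 (3) and control day 0 (2), with irradiated day 6 (2) and irradiated day 3 (3) set beside them, and irradiated day 9 (3) enters only the fit, which holds all 17 libraries. The labels give neither the kind of wound, the radiation dose, the age and sex of the mice nor how much skin around the wound was taken, and they do not say whether the libraries of a group came from separate animals, so p-values measure the spread between these samples.

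Cutaneous wounds close in overlapping stages. Keratinocytes at the edge divide and crawl over the wound bed, blood-borne neutrophils and monocytes enter and give way to macrophages and lymphocytes, and fibroblasts then fill the bed with collagen while the new epidermis stratifies again and forms its cornified layer. Days 3 and 6 after a skin wound in mice are usually counted as the late inflammatory stage and the stage of re-epithelialization and granulation tissue.

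The 4 libraries held 27971207 and 29137652 assigned fragments at day 6, against 29379605 and 29650137 at day 3, within the 25440773 to 30797409 of all 17. Mitochondrially encoded genes took 10.9% and 10.2% of the summed FPKM at day 6, against 10.0% and 12.6% at day 3. Skin identity was checked on Krt14, Krt5, Krt1 and Krt10 (epidermal keratins), Col1a1, Col3a1 and Dcn (dermal matrix), Pecam1 (endothelium), and Ptprc and Lyz2 (white blood cells), and all 10 were detected in each of the 4 libraries. The day 6 libraries resembled each other less than the day 3 libraries did. Their log2(FPKM + 1) values correlated across the 13770 genes, which are not independent replicates, with a Pearson r of 0.965 at day 6 and 0.986 at day 3, against 0.959 to 0.970 between days. The difference between the libraries of a day reached 2-fold for 454 genes (3.3%) at day 6 and for 137 genes (0.995%) at day 3. Day 6 replicate 1 was the library with more keratinocyte stress transcripts, and day 6 replicate 2 the one with more collagen: all 23 members of a wound keratinocyte list were higher in replicate 1, and all 21 tested collagens were higher in replicate 2. Defb3, a beta-defensin of activated keratinocytes, had 275 and 1.37 FPKM at day 6, against 2.85 and 1.59 FPKM at day 3. The part of this split in the results below was not tested.

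Few genes separated day 6 from day 3 once the spread between libraries and the number of genes were taken into account. A limma-trend fit of log2(FPKM + 1) over all 17 libraries, with Benjamini-Hochberg adjustment across the 13770 tested genes, called 6 genes higher at day 6 (0.0436% of genes tested) and 0 lower. At an unadjusted p under 0.05, 373 genes were higher (2.71%) and 1330 lower (9.66%). Limma-voom on whole fragments recovered from the FPKM values called 3 higher (0.0218%), Klk14, Mdk and Tmem255a, and 0 lower. The median log2 fold change over all genes was -0.08, with 9040 genes below zero and 4730 above it. Both day 6 libraries lay above both day 3 libraries for 1504 genes (10.9%) and below them for 4297 genes (31.2%), so a member of any list below is more often found on the low side than on the high side at day 6 by background alone. Changes of at least 1 on the log2 scale showed the opposite balance, with 195 genes higher (1.42%) and 82 lower (0.595%). On this scaling, large differences were thus mostly upward and small ones mostly downward. The median over all genes was near zero with median-of-ratios scaling and further below zero with scaling to nuclear genes. The downward balance of small differences therefore depends on the scaling.

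**Figure D1:**
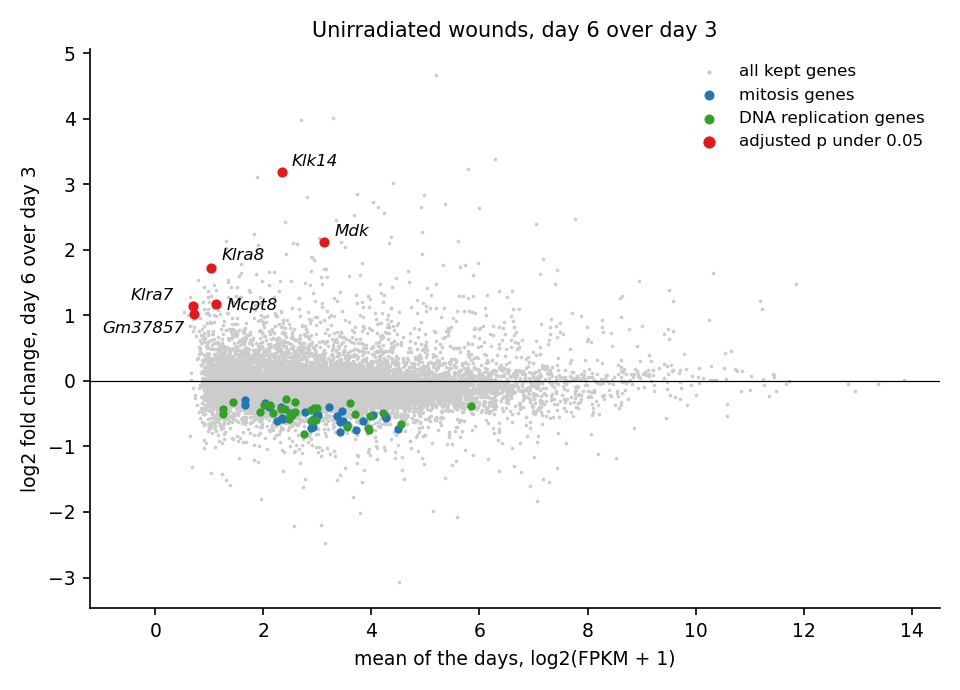
Log2 fold change of day 6 over day 3 in unirradiated wounds against the mean log2(FPKM + 1) of the days, 1 point per gene for 13770 genes. The 6 genes with an adjusted p under 0.05 are red and all lie above zero, 4 of them at the low end of the expression range; the mitosis (blue) and DNA replication (green) genes all lie below zero.

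The gene that rose most among those that passed was Klk14 (ENSMUSG00000044737, chr7:43690418-43695536, plus strand, GRCm38/mm10), which encodes a secreted serine protease of the kallikrein family that cuts desmosomal proteins in the outer epidermis. It had 15.8 and 12.7 FPKM in the day 6 libraries, from 560 and 470 fragments, against 0.911 and 0.451 FPKM in the day 3 libraries, from 34 and 17 fragments. Both day 6 libraries were far above both day 3 libraries. Its log2 fold change was 3.19 ± 0.32 (SE) with an adjusted p of 0.00508 in limma-trend and of 0.0474 in limma-voom. It had 0.247 and 0.105 FPKM in the day 0 libraries, and day 9 libraries held 12.05, 5.27 and 7.44 FPKM. Klk14 missed the threshold with array quality weights (adjusted p = 0.124, limma-trend), with the 9 control libraries (0.081), with the 4 libraries alone (0.0583), without day 3 replicate 3 (adjusted p = 0.161, limma-trend) and without day 6 replicate 1 (adjusted p = 0.0811, limma-trend).

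Mdk (ENSMUSG00000027239, chr2:91929805-91932297, minus strand) was the other abundant gene that rose. It encodes midkine, a heparin-binding growth factor made during development and tissue repair. It had 14.01 and 20.2 FPKM at day 6, against 3.86 and 2.47 FPKM at day 3, a log2 fold change of 2.12 ± 0.27 with an adjusted p of 0.0161 in limma-trend and of 0.0474 in limma-voom. The day 6 libraries did not overlap with those of day 3. Mdk rose again after day 6, with 52.7, 55.3 and 45.4 FPKM at day 9 and a log2 fold change of day 9 over day 6 of 1.54 ± 0.24 (adjusted p = 0.0216, limma-trend; 1.92% of tested genes rose), and the day 0 libraries held 1.19 and 2.40 FPKM, below those of every later day. It was the only member of the list of 31 tested growth factor ligands and receptors to pass. In limma-trend Mdk missed the threshold with a pseudocount of 0.1 (adjusted p = 0.0511), with array quality weights (0.0521) and with the 9 control libraries (0.164). The same held with the 4 libraries alone (0.174) and with the labels' replicate number as a factor (0.0782). It missed the threshold when any 1 of the 4 libraries was left out, with adjusted p-values of 0.0679 to 0.426 (limma-trend).

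The other 4 genes that rose were low in all libraries, and the test on FPKM and the test on fragments treat them differently. Mcpt8 (ENSMUSG00000022157, chr14:56082166-56085273, minus strand) encodes a protease that marks basophils in mice. It had 2.40 and 2.17 FPKM at day 6 (67 and 63 fragments), against 0.512 and 0.406 FPKM at day 3 (15 and 12 fragments), and was listed at 0 in both day 0 libraries. The log2 fold change was 1.17 ± 0.14 (adjusted p = 0.0118, limma-trend), and limma-voom gave a log2 fold change of 2.28 ± 0.39 with an adjusted p of 0.119. Mcpt8 then fell by day 9, to 1.17, 1.05 and 0.723 FPKM, with all 3 day 9 libraries still above those of day 3 (log2 fold change over day 6 -0.73 ± 0.13, adjusted p = 0.0249, limma-trend).

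Klra8 and Klra7 encode Ly49 receptors of natural killer cells, Klra8 the activating receptor Ly49H and Klra7 the inhibitory receptor Ly49G. Klra8 (ENSMUSG00000089727, chr6:130115226-130129898, minus strand) had 4.01 and 1.60 FPKM at day 6 (132 and 55 fragments), against 0.173 and 0.0286 FPKM at day 3 (6 and 1 fragments), with a log2 fold change of 1.72 ± 0.25. Klra7 (ENSMUSG00000067599, chr6:130218605-130233322, minus strand) had 1.75 and 1.11 FPKM at day 6 (62 and 41 fragments), against 0.188 and 0 FPKM at day 3 (7 and 0 fragments), with a log2 fold change of 1.15 ± 0.17. Neither gene overlapped between the days, and both had an adjusted p of 0.0434 in limma-trend, against 0.134 for Klra8 and 0.149 for Klra7 in limma-voom, where the log2 fold changes, with no pseudocount of 1 FPKM, were 4.82 ± 0.86 for Klra8 and 4.77 ± 0.88 for Klra7. Both fell again by day 9, by 1.25 for Klra8 (adjusted p = 0.0302) and by 0.90 for Klra7 (adjusted p = 0.0249) on the log2 scale in limma-trend. The day 9 comparison reuses the day 6 libraries through which Mcpt8, Klra8 and Klra7 were picked. A fall was favoured by that choice. Ly49 genes are near-identical neighbours, and how the authors' counting assigned shared reads is not given in the sources used here, so the split between them is uncertain.

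The sixth gene, Gm37857 (ENSMUSG00000103765, chr3:93393698-93394896, plus strand), is a gene model with no named product. It had 1.28 and 1.37 FPKM at day 6, against 0.227 and 0.0844 FPKM at day 3, a log2 fold change of 1.01 ± 0.14 (adjusted p = 0.0434, limma-trend), or of 3.12 ± 0.50 in limma-voom (adjusted p = 0.0933). All but the first base of it lies within Rptn (chr3:93393699-93399442, the same strand), which encodes repetin, a protein of the cornified envelope. Rptn had 496 and 524 FPKM at day 6, against 111 and 74.2 FPKM at day 3 (log2 fold change 2.47 ± 0.51, adjusted p = 0.128, limma-trend). Reads of the overlapping models cannot be told apart here. All of the 6 genes but Mdk entered the test only through their day 6 libraries. Both of their day 6 libraries therefore had to lie above both day 3 libraries, and neither their direction nor their lack of overlap is support.

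**Figure D2:**
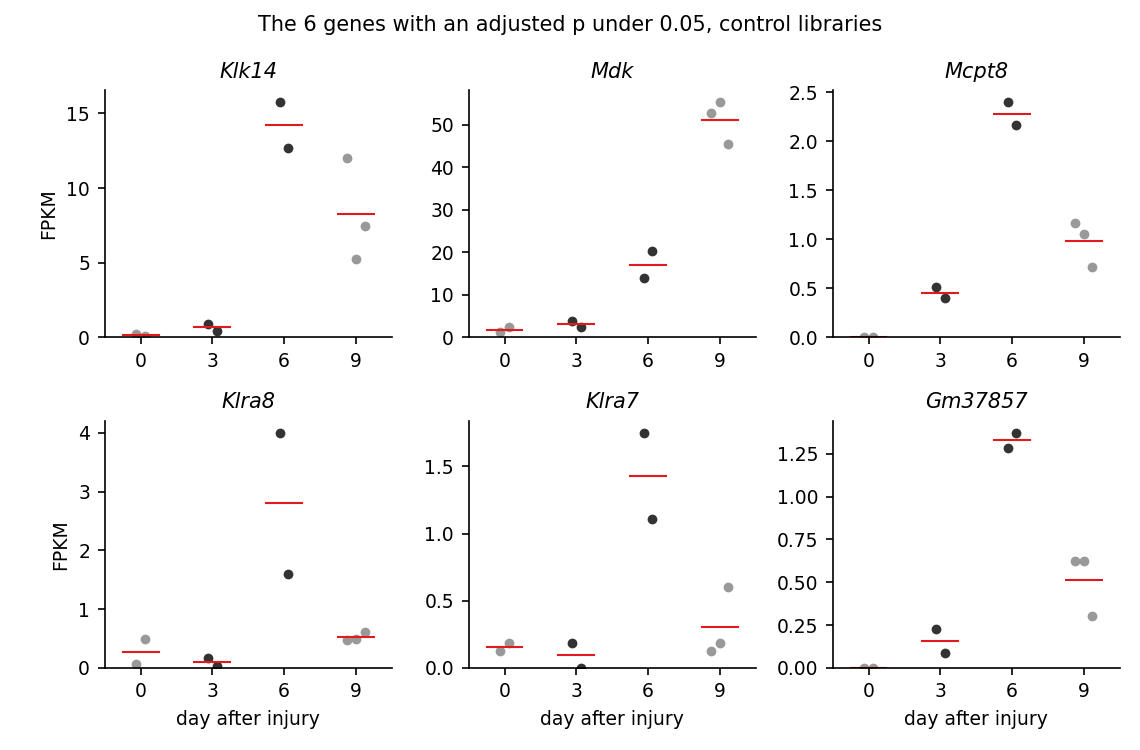
FPKM of the 6 genes with an adjusted p under 0.05 in each control library by day after injury; points are libraries (black for the days compared, grey for days 0 and 9) and red lines are means. In all 6 panels both day 6 points lie above both day 3 points, which the filter fixed for all but Mdk. Mdk goes on to 45.4 to 55.3 FPKM at day 9, whereas Mcpt8, Klra8 and Klra7 are lower at day 9 than at day 6.

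Among protein-coding genes with a mean of at least 5 FPKM in the higher group and no overlap between the days, the largest upward differences that did not pass included genes of epidermis, white blood cells, muscle and fibroblasts. Myh8, the perinatal myosin heavy chain, had 32.4 and 44.2 FPKM at day 6, against 1.46 and 1.37 FPKM at day 3 (log2 fold change 4.01 ± 0.78, adjusted p = 0.128, limma-trend). Il1f6, which encodes the keratinocyte cytokine IL-36 alpha, had 128 and 47.1 FPKM at day 6, against 11.2 and 8.98 FPKM at day 3 (2.83 ± 0.43, adjusted p = 0.0507, limma-trend) and was the gene of this kind nearest to the threshold. Its day 6 libraries differed more than 2-fold from each other, and the lower of them was still far above both day 3 libraries. Sprr2b, a small proline-rich protein of the stressed epidermis, had 629 and 12.9 FPKM at day 6, against 4.99 and 1.25 FPKM at day 3, and Serpinb3a, a protease inhibitor of squamous epithelium, had 435 and 33.1 FPKM, against 12.1 and 11.9 FPKM. Rnase2b, of the eosinophil-associated ribonuclease family, had 473 and 98.2 FPKM at day 6, against 24.8 and 15.6 FPKM at day 3. In these 3 genes, as in Il1f6, day 6 replicate 1 was the higher library, and the same held for the prolactin family gene Prl2c3 (29.7 and 8.33 FPKM at day 6, against 1.80 and 1.09 FPKM at day 3). The protease inhibitor gene Spink7 had 8.59 and 79.4 FPKM at day 6, against 3.43 and 2.35 FPKM at day 3. Prss35, a secreted serine protease, had 11.96 and 42.0 FPKM at day 6, against 0.623 and 0.372 FPKM at day 3, and Lrrc15, a membrane protein of activated fibroblasts, had 22.3 and 56.5 FPKM, against 9.17 and 2.01 FPKM. In these 3 day 6 replicate 2 was the higher library, and Prss35 and Lrrc15 were higher again in all 3 day 9 libraries, with 202, 261 and 125 FPKM for Prss35 and 169, 203 and 149.9 FPKM for Lrrc15.

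Among protein-coding genes with the same limits of level and overlap, the largest downward differences, none of which passed, were mostly in muscle stress genes and chemokines. Ankrd2, a stretch-responsive ankyrin repeat protein of muscle, had 5.10 and 8.46 FPKM at day 6, against 46.9 and 84.5 FPKM at day 3 (log2 fold change -3.08 ± 0.90, adjusted p = 0.22, limma-trend). Cryab, a small heat shock protein of muscle, had 53.4 and 85.5 FPKM, against 187 and 316 FPKM (-1.83 ± 0.38), and Ppp1r27, a phosphatase regulatory subunit, had 1.25 and 2.09 FPKM, against 7.28 and 16.97 FPKM (-2.21 ± 0.38, adjusted p = 0.0649, limma-trend). Cryab and Ppp1r27 were highest in both day 0 libraries, where Cryab had 778 and 683 FPKM. Cxcl14, a chemokine made by resting skin, had 18.4 and 26.7 FPKM at day 6, against 102 and 92.3 FPKM at day 3 (-2.08 ± 0.64), and the B cell chemokine Cxcl13 had 1.31 and 4.80 FPKM, against 12.3 and 20.1 FPKM (-2.20 ± 1.14). The platelet chemokine genes Ppbp and Pf4 had 1.82 and 3.58 and 49.7 and 90.0 FPKM at day 6, against 27.3 and 13.0 and 244 and 174 FPKM at day 3. The days did not overlap in any of these. The neuropeptide gene Gal (-1.80), the neutrophil chemokine Cxcl5 (-1.98), the lubricin gene Prg4 (-2.02), the pentraxin Ptx3 (-1.62) and the muscle ubiquitin ligase Trim63 (-1.55) complete the 12 lowest log2 fold changes among them.

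Every tested gene of the mitosis and DNA replication lists was lower in both day 6 libraries. Of 30 mitosis genes, all tested, 0 passed the adjusted test, 27 were lower at an unadjusted p under 0.05 (9.66% of all genes were) and 30 had both day 6 libraries below both day 3 libraries (31.2% of all genes did). Their median log2 fold change was -0.54, against -0.08 over all genes. Of 30 DNA replication genes, all tested, 0 passed, 27 were lower at an unadjusted p under 0.05, 30 did not overlap in the same direction, and the median was -0.48. Across the alternatives run the count lower at an unadjusted p was 12 to 30 for mitosis and 18 to 29 for replication, and it was lowest without day 3 replicate 1 for mitosis (12) and without day 3 replicate 3 for replication (18). In bulk tissue, fewer dividing cells and less RNA per dividing cell cannot be told apart.

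Promoters of these genes are shown because mitosis genes share short sequence elements that bind NF-Y (CCAAT) and the DREAM and MuvB complexes (TTTGAA, the core of the cell-cycle homology region), which time transcription in the cell cycle. The windows are RefSeq sequences of GRCm38.p6 from 250 bases before to 50 bases after the start, 5′ to 3′ on the gene's strand, with CCAAT and TTTGAA on either strand in capitals (ATTGG is CCAAT on the other strand). Plk1 is chr7:122159185-122159484 on the plus strand, and Ccnb2 chr9:70421505-70421804, Cdc20 chr4:118437294-118437593 and Mcm3 chr1:20820263-20820562 are on the minus strand.
Plk1: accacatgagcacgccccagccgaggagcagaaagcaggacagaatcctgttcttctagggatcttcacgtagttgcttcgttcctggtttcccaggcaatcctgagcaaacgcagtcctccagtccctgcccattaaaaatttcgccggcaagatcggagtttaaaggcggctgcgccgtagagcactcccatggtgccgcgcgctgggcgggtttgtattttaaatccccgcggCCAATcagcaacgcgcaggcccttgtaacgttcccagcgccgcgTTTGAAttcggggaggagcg
Ccnb2: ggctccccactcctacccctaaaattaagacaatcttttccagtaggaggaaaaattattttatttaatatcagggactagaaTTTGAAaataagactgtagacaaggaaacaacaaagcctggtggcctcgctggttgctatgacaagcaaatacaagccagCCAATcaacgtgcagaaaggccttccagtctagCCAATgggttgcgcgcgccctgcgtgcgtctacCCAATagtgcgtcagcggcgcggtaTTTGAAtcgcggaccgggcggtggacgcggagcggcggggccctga
Cdc20: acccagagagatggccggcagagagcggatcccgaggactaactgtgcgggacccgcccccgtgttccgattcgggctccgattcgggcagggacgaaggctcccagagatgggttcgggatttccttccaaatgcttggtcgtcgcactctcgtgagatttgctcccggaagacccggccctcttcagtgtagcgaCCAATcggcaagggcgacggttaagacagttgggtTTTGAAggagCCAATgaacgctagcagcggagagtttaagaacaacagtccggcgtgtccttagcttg
Mcm3: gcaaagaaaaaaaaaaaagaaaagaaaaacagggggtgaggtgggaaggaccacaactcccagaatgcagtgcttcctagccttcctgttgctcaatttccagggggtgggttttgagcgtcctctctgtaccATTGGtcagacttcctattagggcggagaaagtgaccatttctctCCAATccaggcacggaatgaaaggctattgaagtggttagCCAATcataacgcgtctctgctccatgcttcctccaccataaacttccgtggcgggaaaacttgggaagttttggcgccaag
Of the 26 mitosis genes with a window in the table, 21 (80.8%) hold CCAAT and 20 (76.9%) hold TTTGAA. Of the 24 replication genes with a window, 15 (62.5%) hold CCAAT and 2 (8.33%) hold TTTGAA. Among all 27025 genes with a window the shares are 41.1% and 20.2%. The motifs do not overlap each other, and a match is a description of the letters, not of a bound site. The first 3 sequences, of mitosis genes, hold both motifs, and that of the replication gene Mcm3 holds CCAAT alone.

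Among the mitosis genes, Plk1, the polo-like kinase that drives entry into and exit from mitosis, had 7.87 and 6.49 FPKM at day 6, against 13.6 and 12.4 FPKM at day 3, a log2 fold change of -0.78 ± 0.22 (adjusted p = 0.211, limma-trend). Ccnb1, the cyclin that activates Cdk1, had 10.6 and 7.76 FPKM, against 16.1 and 16.04 FPKM (-0.76 ± 0.19), and its relative Ccnb2 had 16.5 and 13.1 FPKM, against 22.5 and 20.9 FPKM (-0.53 ± 0.24). Cdc20, the activator of the anaphase-promoting complex, had 20.3 and 12.9 FPKM, against 26.4 and 28.9 FPKM (-0.73 ± 0.24). In each of these the libraries of a day stood closer to each other than to those of the other day, except that the day 6 libraries of Cdc20 lay further apart. The proliferation marker Mki67 had 16.9 and 12.9 FPKM at day 6, against 22.3 and 22.4 FPKM at day 3, and Top2a, the topoisomerase of mitotic chromosomes, had 13.9 and 11.6 FPKM, against 18.2 and 19.1 FPKM. In the replication list Cdt1, which loads the MCM helicase on origins, had the lowest log2 fold change: it had 4.06 and 4.08 FPKM at day 6, against 7.98 and 7.85 FPKM at day 3 (-0.81 ± 0.16, adjusted p = 0.128, limma-trend). Mcm3, a subunit of that helicase, had 11.97 and 10.1 FPKM, against 18.8 and 18.7 FPKM (-0.72 ± 0.16). Tyms, thymidylate synthase, had 3.75 and 3.31 FPKM, against 5.63 and 5.92 FPKM (-0.58 ± 0.10, adjusted p = 0.0649, limma-trend) and came nearest to the threshold of the genes in both lists. Pcna, the sliding clamp of DNA polymerases, had 49.7 and 48.6 FPKM, against 62.5 and 65.8 FPKM (-0.38 ± 0.10).

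Skin at day 0 held the least of these transcripts, and day 9 resembled day 6. Mki67 had 3.75 and 6.56 FPKM at day 0 and 19.8, 17.9 and 13.5 FPKM at day 9, and Mcm3 3.88 and 6.44 FPKM at day 0 and 13.8, 11.4 and 11.9 FPKM at day 9. The median log2 fold change of day 9 over day 6 was 0.12 for the mitosis list and 0.05 for the replication list, with no member past the adjusted threshold.

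**Figure D3:**
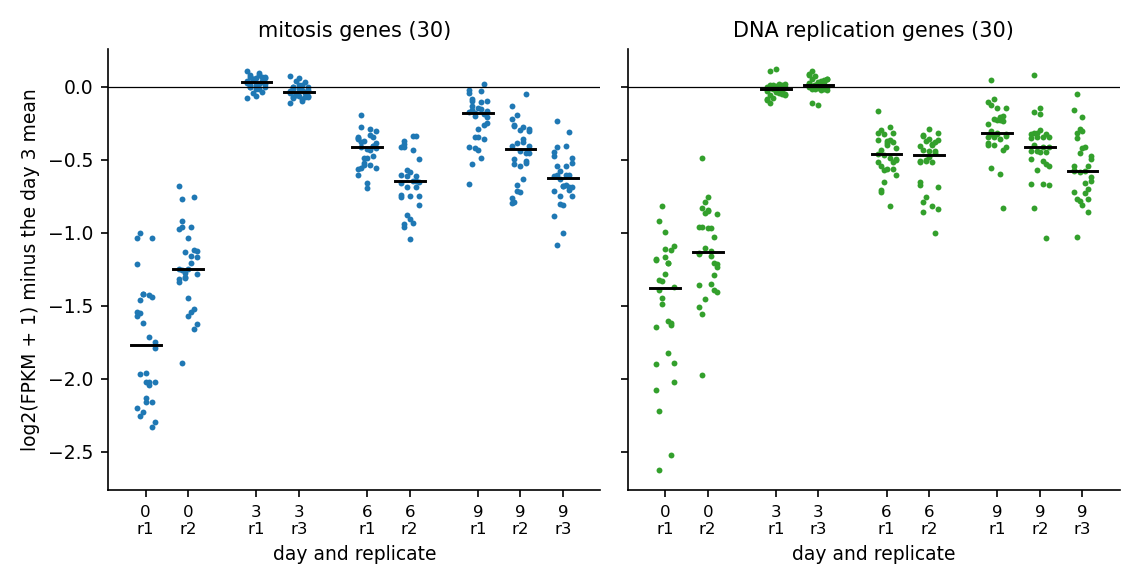
Log2(FPKM + 1) of the 30 mitosis genes (left) and 30 DNA replication genes (right) in each control library, minus the gene's mean over the day 3 libraries; points are genes, black bars are medians, and libraries run by day and replicate. Day 3 stands at zero by construction, day 6 and day 9 medians lie below it, and the day 0 libraries are lowest.

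**Figure D4:**
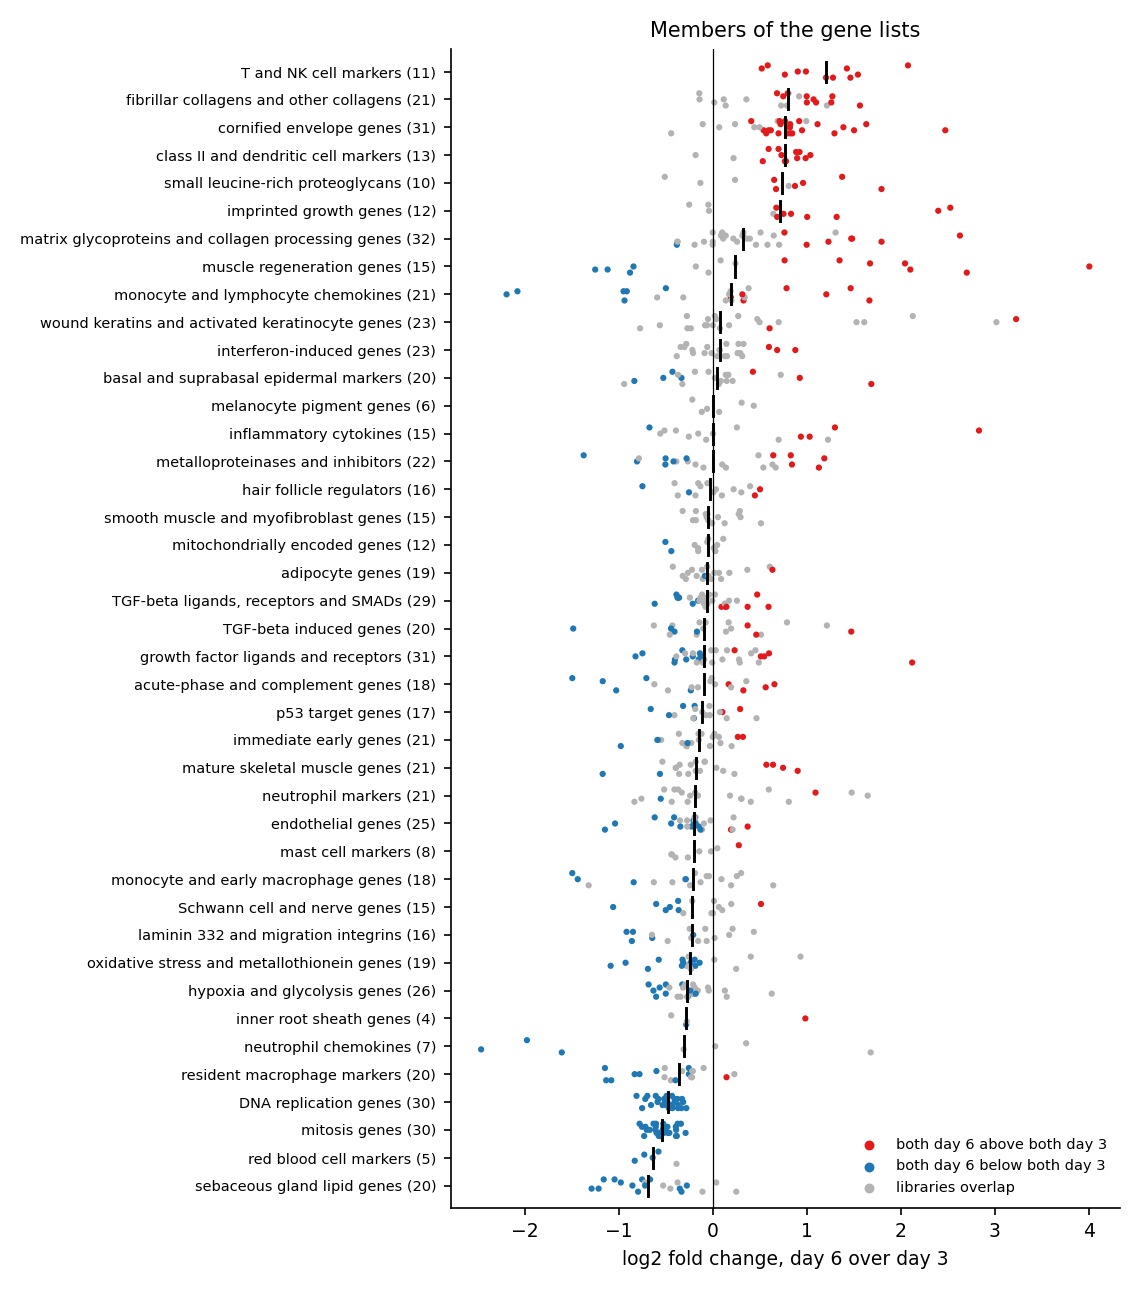
Log2 fold change of day 6 over day 3 for the tested members of each gene list, with the number of members in brackets; black bars are list medians, red and blue points are genes whose day 6 libraries lie above or below both day 3 libraries, and grey points overlap. Mitosis and DNA replication genes lie wholly on the blue side, and T and NK cell markers, cornified envelope, class II and collagen genes mostly on the red or grey side.

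Late differentiation genes of the epidermis lay higher at day 6. Of 31 cornified envelope genes, all tested, 0 passed, 5 were higher at an unadjusted p under 0.05 (2.71% of all genes), 23 had both day 6 libraries above both day 3 libraries (10.9% of all genes) and 0 the reverse, and the median log2 fold change was 0.77. Genes named here and below with values, outside the leading genes and the most abundant list members, were chosen after their values were seen. Rptn is given above. Casp14, the caspase that processes filaggrin, had 234 and 249 FPKM at day 6, against 90.7 and 65.5 FPKM at day 3 (1.63 ± 0.50). Filaggrin itself, Flg, had 32.9 and 54.1 FPKM, against 15.3 and 13.3 FPKM (1.503 ± 0.69), and Asprv1, the retroviral-like protease that also cuts filaggrin, had 922 and 1451 FPKM, against 504 and 386 FPKM (1.39 ± 0.59). Crct1, of the epidermal differentiation cluster, had 695 and 546 FPKM, against 285 and 220.2 FPKM (1.29 ± 0.49). Krt1, a keratin of suprabasal cells, had 1345 and 2010.1 FPKM at day 6, against 790.2 and 949 FPKM at day 3 (0.92 ± 0.62), while Krt10, its partner, overlapped between the days. Of these genes Rptn had the lowest adjusted p in limma-trend. The list's median was 1.12 without day 6 replicate 1 and 0.45 without day 6 replicate 2.

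Laminin and migration integrin genes were lower without overlap about as often as all genes. Of 16 laminin and migration integrin genes, all tested, 0 passed, 3 were lower at an unadjusted p under 0.05 (9.66% of all genes), 5 did not overlap with day 3 on the low side (31.2% of all genes), and 4 had positive log2 fold changes. Itgb4, the hemidesmosome integrin, had 20.5 and 15.95 FPKM at day 6, against 34.8 and 35.4 FPKM at day 3 (-0.92 ± 0.25). Its partner Itga6 had 36.8 and 26.1 FPKM, against 58.9 and 55.6 FPKM (-0.86 ± 0.27), and Col17a1, the hemidesmosome collagen, had 82.7 and 90.4 FPKM, against 154 and 157 FPKM (-0.84 ± 0.38). The basal keratin Krt5 had 1534 and 1018 FPKM at day 6, against 1608 and 2020.4 FPKM at day 3, and its partner Krt14 had 12732 and 8384 FPKM, against 10734 and 10611 FPKM. Krt5 separated the days and Krt14 did not.

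Wound keratins gave no common direction. Of 23 wound keratin and activated keratinocyte genes, 0 passed, and the median log2 fold change was 0.07. Without overlap 2 were higher (10.9% of all genes) and 0 lower (31.2%). Krt6a had 3396 and 1613 FPKM at day 6, against 2826 and 2686 FPKM at day 3, Krt16 had 4292 and 2240.0 FPKM, against 3485 and 2969 FPKM, and Krt17 had 2167 and 642 FPKM, against 1286 and 1053 FPKM. In each of the 3 the day 6 libraries lay on either side of both day 3 libraries. The median was -0.69 without day 6 replicate 1 and 1 without day 6 replicate 2, and it was also negative without day 3 replicate 3 (-0.11), so its sign depends on single libraries.

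Lymphocyte and natural killer cell transcripts were low but higher at day 6. All 20 T and NK cell markers in the table had both day 6 libraries above both day 3 libraries, where 14.2% of the 29454 genes detected in any of the 4 libraries did and 20.4% lay on the reverse side. Their summed FPKM was 49.8 and 30.5 at day 6, against 12.1 and 7.21 at day 3. Only 11 reached the limit for testing, 7 of them through day 6 alone, and 0 passed. Gzmb, the cytotoxic protease granzyme B, had 6.57 and 6.67 FPKM at day 6, against 1.19 and 0.493 FPKM at day 3 (2.08 ± 0.62, adjusted p = 0.224, limma-trend). The coreceptor Cd4 had 6.13 and 3.75 FPKM, against 2.30 and 1.61 FPKM (0.99 ± 0.49), and Trac, the T cell receptor alpha constant region, had 5.16 and 2.13 FPKM, against 1.35 and 0.397 FPKM. Day 6 replicate 1 was the higher day 6 library for Cd4 and Trac. The chemokine genes Cxcl9 and Ccl5, which attract such cells, had 10.1 and 4.597 and 8.57 and 3.68 FPKM at day 6, against 1.38 and 1.60 and 2.45 and 0.703 FPKM at day 3. They belong to a list of 21 tested chemokines, of which 7 were higher without overlap (10.9% of all genes) and 6 lower (31.2%). The B cell chemokine Cxcl13, given above, was among the lower ones.

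Antigen presentation genes stood on the same side. Of 13 tested class II and dendritic cell genes, 0 passed and 5 were higher at an unadjusted p under 0.05 (2.71% of all genes). Without overlap 11 were higher (10.9% of all genes) and 0 lower (31.2%), and the median was 0.77. H2-Aa, a chain of the class II molecule, had 319.7 and 275 FPKM at day 6, against 174 and 119 FPKM at day 3 (1.04 ± 0.41, adjusted p = 0.327, limma-trend). H2-Eb1 had 364 and 294 FPKM, against 204 and 133 FPKM (0.99 ± 0.43), and Cd74, the invariant chain, had 429 and 412 FPKM, against 278 and 176 FPKM (0.92 ± 0.43). Cd207, langerin of Langerhans cells, had 3.81 and 5.12 FPKM, against 2.21 and 1.64 FPKM (0.90 ± 0.29). The median was 0.59 to 0.97 with any 1 of the 4 libraries left out.

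Macrophage genes lay mostly lower or overlapped. Of 20 tested resident macrophage markers, 0 passed and 3 were lower at an unadjusted p under 0.05 (9.66% of all genes). Without overlap 9 were lower (31.2% of all genes) and 1 higher (10.9%), and the median was -0.36. Cbr2, a carbonyl reductase of resident macrophages, had 30.2 and 48.6 FPKM at day 6, against 82.2 and 89.1 FPKM at day 3 (-1.14 ± 0.34), and the lysosomal marker Cd68 had 47.3 and 77.1 FPKM, against 119 and 92.0 FPKM (-0.78 ± 0.45). The abundant Apoe and C1qb overlapped between the days, and 18 of the 20 markers were lower in day 6 replicate 1 than in replicate 2. The calprotectin genes S100a8 and S100a9, in the neutrophil list, were highest in a single library. S100a8 had 5144 and 591 FPKM at day 6, against 701 and 441 FPKM at day 3, and S100a9 14576 and 1468 FPKM, against 2252 and 1226 FPKM, with day 6 replicate 1 far above the other 3. Activated keratinocytes also express both genes. Of the 21 tested neutrophil markers 0 passed, and the median was -0.19. Without overlap 1 was higher (10.9% of all genes) and 1 lower (31.2%). The monocyte chemokine Ccl2 had 14.9 and 8.23 FPKM at day 6, against 26.1 and 18.3 FPKM at day 3. Its list of 21 tested monocyte and lymphocyte chemokines had 13 positive and 8 negative log2 fold changes, with a median of 0.19. Without overlap 7 of these chemokines were higher (10.9% of all genes) and 6 lower (31.2%).

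Matrix genes lay higher at day 6 in most lists, by an amount that differed between the day 6 libraries. Of 21 tested collagens, 1 of them only through day 6, 0 passed. At an unadjusted p under 0.05, 3 were higher (2.71% of all genes). Without overlap 10 were higher (10.9% of all genes) and 0 lower (31.2%), and the median was 0.80. Col12a1, a fibril-associated collagen of healing dermis, had 22.5 and 52.0 FPKM at day 6, against 15.3 and 7.71 FPKM at day 3 (1.56 ± 0.60). Col1a2, a chain of type I collagen, had 379.8 and 837 FPKM, against 311 and 177 FPKM (1.26 ± 0.50), whereas Col1a1, the other chain, had 665 and 1713 FPKM, against 669 and 316 FPKM (1.21 ± 0.62) and overlapped. The collagen median was 1.27 without day 6 replicate 1 and 0.29 without replicate 2. At day 9 Col1a1 reached 3621, 3741 and 2896 FPKM.

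Of 32 tested matrix glycoprotein and collagen processing genes 0 passed, and the median was 0.32. At an unadjusted p under 0.05, 5 were higher (2.71% of all genes) and 1 lower (9.66%). Mfap4, a microfibril protein of elastic fibres, had 85.5 and 248 FPKM at day 6, against 25.9 and 19.8 FPKM at day 3 (2.63 ± 0.52, adjusted p = 0.128, limma-trend). Postn, periostin of granulation tissue, had 192 and 379 FPKM, against 115 and 81.0 FPKM (1.47 ± 0.45), and Aspn, the proteoglycan asporin, had 66.9 and 178 FPKM, against 36.1 and 26.2 FPKM (1.79 ± 0.57). The days did not overlap for any of these 3. The enzymes and chaperones that fold and cross-link collagen, Lox, Plod2, P4ha1 and Serpinh1, overlapped between the days, with Lox at 59.5 and 93.6 FPKM at day 6, against 87.7 and 52.4 FPKM at day 3. Of 10 tested small leucine-rich proteoglycans 6 were higher without overlap (10.9% of all genes) and 0 lower (31.2%), with a median of 0.74. Fmod, fibromodulin, had 4.56 and 9.51 FPKM at day 6, against 1.99 and 1.91 FPKM at day 3, whereas Dcn, decorin, overlapped at 166 and 261 FPKM, against 209 and 249 FPKM.

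Among 22 tested metalloproteinases and inhibitors 0 passed. Without overlap 5 were higher (10.9% of all genes) and 6 lower (31.2% of all genes). Mmp11, stromelysin 3, had 13.9 and 25.2 FPKM at day 6, against 7.67 and 7.71 FPKM at day 3 (1.19 ± 0.42), and Mmp14, a membrane-bound collagenase, had 69.8 and 109.9 FPKM, against 54.7 and 42.9 FPKM (0.84 ± 0.35). The inhibitor Timp1 had 47.0 and 52.5 FPKM at day 6, against 159 and 107 FPKM at day 3 (-1.38 ± 0.91). The days did not overlap for any of these 3.

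Genes of regenerating muscle were higher without overlap more often than all genes, and lower without overlap about as often. Of 15 tested muscle regeneration genes 0 passed. Without overlap 7 were higher (10.9% of all genes) and 4 lower (31.2% of all genes). Those on the high side include sarcomere genes of young fibres: besides Myh8, the embryonic myosin Myh3 had 39.8 and 40.9 FPKM at day 6, against 10.7 and 6.90 FPKM at day 3 (2.10 ± 1.13), the cardiac actin Actc1 had 84.5 and 124 FPKM, against 15.1 and 14.7 FPKM (2.70 ± 1.01), and the slow troponin Tnnt1 had 23.7 and 20.6 FPKM, against 4.86 and 4.35 FPKM (2.04 ± 0.70). Mymk, which drives myoblast fusion, was also on the high side (log2 fold change 0.76). On the low side, the myogenic factor Myod1 had 5.03 and 5.62 FPKM at day 6, against 11.4 and 14.2 FPKM at day 3 (-1.12 ± 0.53), and the satellite cell cadherin Cdh15 had 2.87 and 3.36 FPKM, against 7.41 and 10.4 FPKM (-1.25 ± 0.46). Myog, which acts as myoblasts differentiate, and Mymx, a fusion peptide, were also lower in both day 6 libraries. The mature muscle genes Acta1 and Ckm overlapped. One day 0 library also held many of these transcripts (Myh3 1.41 and 49.6 FPKM in the day 0 libraries), so muscle transcripts also varied between the day 0 libraries.

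Imprinted growth genes lay higher at day 6. Of 12 tested members, 1 of which was tested only through day 6, 0 passed. At an unadjusted p under 0.05, 5 were higher (2.71% of all genes). Without overlap 8 were higher (10.9% of all genes) and 0 lower (31.2%), and the median was 0.72. H19, a noncoding RNA made in growing tissue and muscle, had 313 and 290.0 FPKM at day 6, against 58.9 and 53.8 FPKM at day 3 (2.40 ± 0.41, adjusted p = 0.0649, limma-trend), while the day 0 libraries held 393 and 634 FPKM. Its neighbour Igf2, the fetal insulin-like growth factor, had 31.7 and 28.0 FPKM, against 4.88 and 3.86 FPKM (2.53 ± 0.59), and Cdkn1c, a cell cycle inhibitor, had 17.9 and 21.4 FPKM, against 8.35 and 6.29 FPKM (1.32 ± 0.44). H19 passed with median-of-ratios scaling (adjusted p = 0.0475, limma-trend).

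Sebaceous gland lipid genes lay lower at day 6. Of 20 members, all tested, 0 passed and 5 were lower at an unadjusted p under 0.05 (9.66% of all genes). Without overlap 13 were lower (31.2% of all genes) and 0 higher (10.9%), and the median was -0.70. Elovl3, a fatty acid elongase, had 65.8 and 57.4 FPKM at day 6, against 111 and 208 FPKM at day 3 (-1.29 ± 0.52), and it fell by day 9, to 13.0, 8.23 and 29.5 FPKM (log2 fold change over day 6 -1.98 ± 0.47, adjusted p = 0.0492, limma-trend). Soat1, which esterifies cholesterol, had 11.2 and 12.9 FPKM, against 20.7 and 32.3 FPKM (-1.05 ± 0.26), and Plin2, a lipid droplet protein, had 55.7 and 58.7 FPKM, against 109 and 92.1 FPKM (-0.80 ± 0.22). The list median was -0.32 without day 3 replicate 3 and -0.43 without day 6 replicate 1.

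Endothelial genes had 0 of 25 tested members passing, 13 lower without overlap (31.2% of all genes) and 2 higher (10.9%), and a median of -0.20. Apln, the ligand apelin of sprouting vessels, had 2.49 and 4.33 FPKM at day 6, against 9.34 and 6.62 FPKM at day 3, then rose to 17.5, 21.4 and 13.0 FPKM at day 9 (log2 fold change over day 6 2.06 ± 0.42, adjusted p = 0.0381, limma-trend). Of 26 hypoxia and glycolysis genes, all tested, 0 passed and 11 were lower without overlap (31.2% of all genes). The pyruvate kinase gene Pkm had 293 and 209 FPKM at day 6, against 349 and 353 FPKM at day 3. Among growth factors that did not pass, Igf1 had 10.7 and 18.04 FPKM at day 6, against 9.47 and 8.33 FPKM at day 3 (0.60 ± 0.29) and rose by day 9 (log2 fold change over day 6 1.16 ± 0.27, adjusted p = 0.0479, limma-trend).

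The series title names TGF-β1, and none of 29 tested TGF-β ligands, receptors and SMADs passed between the days. Of these, 6 were higher without overlap (10.9% of all genes) and 7 lower (31.2%). At an unadjusted p under 0.05, 1 was higher (2.71% of all genes) and 2 were lower (9.66%), and the median was -0.07. Tgfb1 had 13.2 and 16.1 FPKM at day 6, against 19.7 and 15.5 FPKM at day 3 (-0.25 ± 0.32, adjusted p = 0.815, limma-trend), and the days overlapped. The other ligands lay higher in both day 6 libraries. Tgfb2 had 2.61 and 4.39 FPKM at day 6, against 2.13 and 2.22 FPKM at day 3 (0.47 ± 0.19, adjusted p = 0.35, limma-trend), and Tgfb3 had 8.89 and 14.8 FPKM, against 6.76 and 7.84 FPKM (0.59 ± 0.32). Tgfb2 then rose between days 6 and 9, to 6.98, 7.20 and 8.96 FPKM (log2 fold change 0.98 ± 0.18, adjusted p = 0.0302, limma-trend). The receptor genes Tgfbr1 and Tgfbr2 overlapped, with log2 fold changes of -0.06 ± 0.22 and -0.08 ± 0.33.

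Of the SMADs that carry the signal, Smad3 had 4.95 and 6.68 FPKM at day 6, against 7.71 and 7.77 FPKM at day 3 (-0.37 ± 0.15, adjusted p = 0.333, limma-trend), and Smad2 had 11.5 and 11.6 FPKM, against 13.4 and 12.6 FPKM (-0.16 ± 0.10). Both were lower in both day 6 libraries. The shared partner Smad4 (-0.11 ± 0.13) and the inhibitory Smad7 (-0.14 ± 0.20) overlapped. Of 20 tested TGF-β induced genes 0 passed, 9 had positive and 11 negative log2 fold changes, and the median was -0.09. Without overlap 3 were higher (10.9% of all genes) and 4 lower (31.2%). Postn, given above, was on the high side, and Tgfbi, a matrix protein named for its induction by TGF-β, was on the low side with 149 and 146 FPKM at day 6, against 206 and 197 FPKM at day 3 (-0.45 ± 0.22).

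In the remaining lists, too, 0 genes passed. Of all genes, 2.71% were higher and 9.66% lower at an unadjusted p under 0.05. Of 17 tested p53 target genes 0 passed and 3 were lower at an unadjusted p under 0.05, among them Phlda3, an inhibitor of Akt, with 56.3 and 53.01 FPKM at day 6, against 73.0 and 78.9 FPKM at day 3 (-0.47 ± 0.10). Of 23 tested interferon-induced genes 0 passed, 0 had an unadjusted p under 0.05, and the median was 0.07. All 5 tested red blood cell genes had negative log2 fold changes, with a median of -0.64, and 4 were lower without overlap (31.2% of all genes). Of 18 tested acute-phase and complement genes 0 passed and 1 was lower at an unadjusted p under 0.05. This was Hp, haptoglobin, with 208 and 281 FPKM at day 6, against 573 and 522 FPKM at day 3 (-1.17 ± 0.46), and the acute-phase gene Saa3 had 129 and 50.9 FPKM, against 220.0 and 242 FPKM. Of 19 tested oxidative stress and metallothionein genes 0 passed, 2 were lower at an unadjusted p under 0.05 and 11 were lower without overlap (31.2% of all genes). Smooth muscle and myofibroblast genes (15 tested), melanocyte pigment genes (6), adipocyte genes (19), mast cell markers (8) and immediate early genes (21) had 0 members at an unadjusted p under 0.05 in either direction. Acta2, the myofibroblast actin, had 119 and 219 FPKM at day 6, against 124 and 103 FPKM at day 3, and the days overlapped. The mast cell chymase gene Cma1 had 17.6 and 35.8 FPKM at day 6, against 34.1 and 27.3 FPKM at day 3, and the days overlapped. Hair follicle regulators (16 tested), inner root sheath genes (4), Schwann cell and nerve genes (15), mature skeletal muscle genes (21) and monocyte and early macrophage genes (18) likewise had 0. The counts at an unadjusted p under 0.05 were 2 higher and 0 lower of 15 inflammatory cytokines, 0 higher and 2 lower of 21 monocyte and lymphocyte chemokines (of which 7 were higher without overlap, against 10.9% of all genes, and 6 lower, against 31.2%), 0 higher and 2 lower of 7 neutrophil chemokines, 1 higher and 1 lower of 20 basal and suprabasal epidermal markers, and 0 higher and 1 lower of 12 mitochondrially encoded genes. Of 14 listed hair shaft keratins 13 were in the deposited file, and 0 of these reached the limit for testing, with summed FPKM of 3.29 and 1.51 at day 6, against 1.37 and 1.04 at day 3.

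The 2 most abundant members of each list were taken for their level and not for their difference, and none of those given here passed. Values in brackets are log2 fold changes of day 6 over day 3. Among inflammatory genes, the neutrophil chemokine Cxcl2 had 155 and 102 FPKM at day 6, against 217 and 70.4 FPKM at day 3 (0.02 ± 1.10). Il1b, interleukin 1 beta, had 166 and 84.5 FPKM, against 282 and 108 FPKM (-0.56), and Il33, the epithelial alarmin, had 320.2 and 145 FPKM, against 368 and 258 FPKM (-0.52). The days overlapped in all 3. The monocyte chemokine Ccl8 had 439.8 and 433 FPKM at day 6, against 320.4 and 385 FPKM at day 3 (0.31 ± 0.57), and Ccl6 had 60.2 and 95.4 FPKM, against 163 and 131 FPKM (-0.94), without overlap and with opposite signs. Arg1, arginase 1 of wound macrophages, had 452 and 202 FPKM, against 246 and 152 FPKM (0.64), and Spp1, osteopontin, had 50.8 and 179 FPKM, against 352 and 164 FPKM (-1.32), both overlapping. The complement gene C1qa had 179 and 221 FPKM, against 251 and 224 FPKM (-0.26), and Stfa3, a stefin of neutrophils, had 4979.7 and 2243 FPKM, against 1812 and 1356 FPKM (1.09), which separated the days in opposite directions. The mast cell protease Mcpt4 had 25.2 and 47.5 FPKM, against 48.7 and 43.5 FPKM (-0.40) and overlapped, as did the interferon-induced Bst2 (65.1 and 53.2 FPKM, against 64.0 and 43.8 FPKM, 0.15) and Isg15 (27.7 and 21.9 FPKM, against 39.5 and 14.2 FPKM, 0.05).

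In the epidermis, Krt6b had 4491 and 2437 FPKM at day 6, against 3629.7 and 3015 FPKM at day 3 (0.00 ± 0.59), and Lgals7, galectin 7 of stratified epithelium, had 3635 and 2144 FPKM, against 2472 and 2886 FPKM (0.06). Perp, a desmosome protein and p53 target, had 2143 and 1747 FPKM, against 1789 and 1708 FPKM (0.15), and the days overlapped in all 3. Klk7, a kallikrein that like Klk14 acts in the shedding of corneocytes, had 722 and 458 FPKM at day 6, against 428 and 365 FPKM at day 3 (0.54 ± 0.40) and was higher in both day 6 libraries. Itgb1, the beta 1 integrin, had 171 and 167 FPKM, against 210.4 and 183 FPKM (-0.21) and was lower in both. Tgm3, a transglutaminase of hair and epidermis, had 36.2 and 12.8 FPKM, against 31.4 and 28.3 FPKM (-0.44), and the cathepsin gene Ctsl had 104 and 97.6 FPKM, against 126 and 120.1 FPKM (-0.29). The follicle regulators Ovol1 (0.30 ± 0.33) and Wnt10a (-0.06 ± 0.30) and the melanocyte genes Dct (-0.12 ± 0.94) and Mlana (0.43 ± 0.69) overlapped. Of the abundant sebaceous gland genes, the desaturase Scd1 had 286 and 426 FPKM at day 6, against 433 and 768 FPKM at day 3 (-0.72 ± 0.56) and the elongase Elovl4 had 400.2 and 372 FPKM, against 419.5 and 523 FPKM (-0.28), both lower in both day 6 libraries.

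In the dermis and deeper tissue, Sparc, a collagen-binding protein, had 688 and 1354 FPKM at day 6, against 648 and 499 FPKM at day 3 (0.76 ± 0.38), and Lum, lumican, had 152 and 294 FPKM, against 136 and 129 FPKM (0.67). Both were higher in both day 6 libraries, and higher in replicate 2 than in replicate 1. Mmp3, stromelysin 1, had 108 and 124 FPKM, against 136 and 146 FPKM (-0.28) and was lower in both, and the inhibitor Timp2 had 84.4 and 153 FPKM, against 103 and 104 FPKM (0.14) and overlapped. The adipocyte genes Car3 (-0.22 ± 0.64) and Cfd (-0.17 ± 0.48) and the muscle filament genes Tpm2 (-0.06 ± 0.25) and Des (-0.32 ± 0.42) overlapped, whereas Mylpf, a myosin light chain of fast muscle, had 766 and 1046 FPKM at day 6, against 497 and 664 FPKM at day 3 (0.64 ± 0.41) and was higher in both day 6 libraries. The endothelial genes Plvap (-0.41 ± 0.22) and Cdh5 (-0.19 ± 0.29), the TGF-β coreceptor Eng (-0.62 ± 0.22) and the haemoglobin genes Hbb-bs (-0.73 ± 0.54) and Hba-a1 (-0.83 ± 0.45) were lower in both day 6 libraries. So were the myelin gene Pmp22 (-0.50 ± 0.33) and the ribonucleotide reductase gene Rrm2 (-0.66 ± 0.31).

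Among abundant members of the glycolysis, oxidative stress, immediate early and p53 lists, Ldha, lactate dehydrogenase A, had 447 and 268 FPKM at day 6, against 437 and 426 FPKM at day 3 (-0.32 ± 0.24) and overlapped, and Aldoa, aldolase A, had 303 and 286 FPKM, against 320.0 and 363 FPKM (-0.21) and did not. Prdx1, a peroxiredoxin, had 194 and 178 FPKM, against 202 and 208 FPKM (-0.14) and was lower in both day 6 libraries, while Gpx3 (0.25 ± 0.47), Junb (-0.55 ± 0.39), Klf4 (0.20 ± 0.33) and the p53 target Cdkn1a (-0.21 ± 0.23) overlapped. The mitochondrial transcripts mt-Co1 (0.01 ± 0.22) and mt-Nd1 (-0.16 ± 0.25) overlapped as well.

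The same pair of days in irradiated wounds shares no library with the control pair. There 12 genes rose (0.0871%) and 40 fell (0.29%) at an adjusted p under 0.05 in limma-trend. The difference of the changes, irradiated minus control, passed for 0 genes in limma-trend, with 1231 genes (8.94%) at an unadjusted p under 0.05, and for 0 in limma-voom. Across the 13770 genes, which share library depth and are not independent, the changes correlated with a Pearson r of 0.291. Klk14 rose in both, with a log2 fold change of 2.56 ± 0.30 in irradiated wounds (adjusted p = 0.0102, limma-trend), where it had 6.16 and 9.53 FPKM at day 6, against 0.536, 0.484 and 0.403 FPKM at day 3. Mdk had a log2 fold change of 1.21 ± 0.24 in irradiated wounds (adjusted p = 0.059, limma-trend), with 11.6 and 7.44 FPKM at day 6, against 3.02, 3.87 and 3.53 FPKM at day 3. Mcpt8 had 0.353 and 0.145 FPKM at irradiated day 6, against 0.130, 0.103 and 0.0342 FPKM at irradiated day 3, and a difference between the changes of -0.98 ± 0.19 (adjusted p = 0.344, limma-trend).

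For mitosis, 30 of 30 genes also had a negative log2 fold change in irradiated wounds, with a median of -0.22, against -0.54 in control wounds. Mki67 had 9.40 and 12.1 FPKM at irradiated day 6, against 13.0, 11.6 and 12.1 FPKM at irradiated day 3, so the irradiated day 3 libraries were already below those of control day 3. In replication 25 of 30 were negative, with a median of -0.20, against -0.48. None of these differences between arms passed. Among the lists tested, interferon-induced genes had the largest difference between the medians of the arms. All 23 had negative log2 fold changes in irradiated wounds, with a median of -1.40, against 0.07 in control wounds, and Ifit2, an antiviral RNA-binding protein, fell to 8.35 and 30.9 FPKM at irradiated day 6, against 147, 126 and 90.3 FPKM at irradiated day 3 (log2 fold change -2.79 ± 0.51, adjusted p = 0.0485, limma-trend). In control wounds Ifit2 had 8.18 and 7.91 FPKM at day 6, against 9.30 and 4.16 FPKM at day 3, and the difference of the changes was -3.11 ± 0.76 (adjusted p = 0.35, limma-trend). Several class II genes had values of opposite sign in the arms: H2-Aa had 35.4 and 36.5 FPKM at irradiated day 6, against 58.5, 59.2 and 54.7 FPKM at irradiated day 3, a log2 fold change of -0.66 ± 0.38 against 1.04 in control wounds, with a difference of -1.70 ± 0.56 (adjusted p = 0.389, limma-trend).

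The 3 largest differences between the arms in each direction, 0 of which passed, were in Mup15 (2.63 ± 0.62), Orm2 and Cxcl5 (2.60 ± 2.11) on the positive side and in Prl2c3 (-3.52 ± 1.08), Rsad2 and Prss35 (-3.12 ± 1.09) on the negative side, on the log2 scale. Orm2, an orosomucoid, had 22.5 and 1.95 FPKM at irradiated day 6, against 0.628, 1.23 and 0.837 FPKM at irradiated day 3, and 1.43 and 0.443 FPKM at control day 6, against 1.10 and 2.13 FPKM at control day 3 (difference 2.60 ± 1.01, adjusted p = 0.459, limma-trend). Rsad2, viperin, had 3.48 and 25.1 FPKM at irradiated day 6, against 129, 98.1 and 69.3 FPKM at irradiated day 3, and 4.59 and 3.28 FPKM at control day 6, against 6.79 and 1.78 FPKM at control day 3 (difference -3.23 ± 0.97, adjusted p = 0.377, limma-trend).

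**Figure D5:**
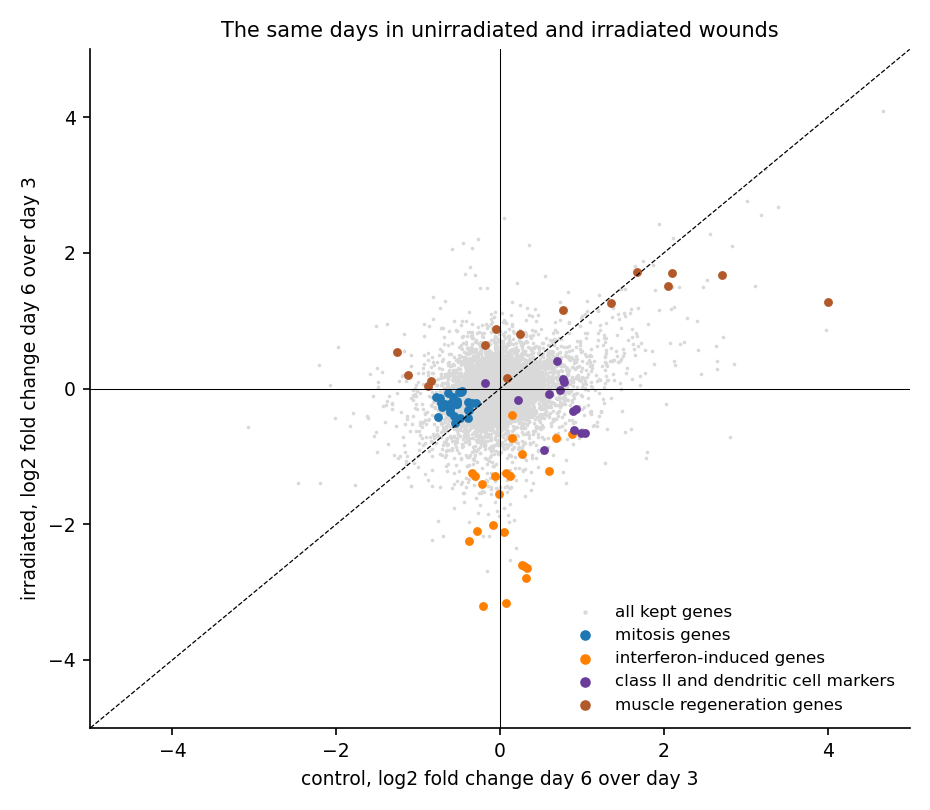
Log2 fold change of day 6 over day 3 in irradiated wounds (vertical) against the same in unirradiated wounds (horizontal), 1 point per gene for 13770 genes, with the dashed line marking equal changes. Mitosis genes lie below zero on both axes, interferon-induced genes scatter around zero on the horizontal axis and lie below zero on the vertical axis, and class II (purple) and muscle regeneration (brown) genes are marked for comparison.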

How the data were processed

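Skin libraries were Smart-Seq2, sequenced from both ends, and the authors deposited a single series-wide matrix of FPKM values per gene and library (per the labels' protocols for the library type). HISAT2 2.2.1 and mm10 are named in the submitters' processing notes; the counting tool, annotation and strand setting: not given in the sources used here. With gene lengths from a GENCODE mouse annotation, 90.761% of nonzero values were whole numbers of fragments within 0.01 fragments. The lengths of 2658 genes were then fitted so that their values became whole. This raised the share to 99.979%, a rise fixed by the fitting. The recovered fragments give the depths printed.

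The filter kept genes at FPKM 1 or more in at least 2 of the compared libraries. A limma-trend model (limma 3.58.1 in R 4.3.3) of log2(FPKM + 1), the 1 being a pseudocount, held a mean for each of the 7 groups in all 17 libraries, and two-sided p-values were adjusted by Benjamini and Hochberg over the kept genes; under 0.05 passed. This scale understates changes of low genes. Changes are day 6 minus day 3, or irradiated minus control for the difference of changes. Changes of day 9 over day 6 reuse the control day 6 libraries. Genes picked as high or low at day 6 therefore tend to turn back by day 9. Non-overlap means both libraries of a day on one side of both of the other.

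The members, the 43 gene lists and the alternatives were chosen with earlier results of these data known. Named genes were the 12 highest and 12 lowest changes among protein-coding genes without overlap and with a mean of at least 5 FPKM in the higher group, up to 4 passing members per list or else its 2 most abundant, the TGF-β genes and the 3 largest differences between arms of each sign; others were chosen after their values were seen. A few of these genes are not reported here. Alternatives were other pseudocounts, filters, scalings, weights, sample sets, limma-voom on recovered fragments, each library left out and, added after seeing the data, a replicate block. The code was tested on simulated data. All value columns were matched to samples.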

Additional observations from a re-analysis of the deposited data

Results flagged for a closer look

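Of the 116 genes named by the rule, 5 had all libraries of day 6 on one side of all libraries of day 3 in irradiated wounds and on the opposite side in control wounds. Among all 13770 genes, 576 did, which is about the same share. The rule picked some genes for not overlapping in control wounds or for a large difference between the arms. The likeness of the shares therefore cannot be read either way. The difference of the changes, irradiated minus control, was tested for each by limma-trend with Benjamini-Hochberg adjustment and passed for none.

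Ppp1r27 had 9.20 and 7.91 FPKM at irradiated day 6, against 7.12, 6.55 and 5.76 FPKM at irradiated day 3, and 1.25 and 2.09 FPKM at control day 6, against 7.28 and 16.97 FPKM at control day 3, a difference of 2.56 ± 0.51 on the log2 scale (adjusted p = 0.344, limma-trend). H2-Eb1 had 48.6 and 44.7 FPKM at irradiated day 6, against 76.9, 74.7 and 71.1 FPKM at irradiated day 3, and 364 and 294 FPKM at control day 6, against 204 and 133 FPKM at control day 3, a difference of -1.65 ± 0.59 (adjusted p = 0.414, limma-trend). For Cd74 the difference was -1.23 ± 0.58 (adjusted p = 0.572, limma-trend), with 87.8 and 66.5 FPKM at irradiated day 6, against 101, 95.6 and 88.4 FPKM at irradiated day 3, and 429 and 412 FPKM at control day 6, against 278 and 176 FPKM at control day 3. Haptoglobin, Hp, had 1572 and 974 FPKM at irradiated day 6, against 959, 549 and 673 FPKM at irradiated day 3, and 208 and 281 FPKM at control day 6, against 573 and 522 FPKM at control day 3, a difference of 1.98 ± 0.62 (adjusted p = 0.386, limma-trend). The major urinary protein gene Mup15, one of a family of near-identical copies, had 11.5 and 10.1 FPKM at irradiated day 6, against 0.632, 4.47 and 1.59 FPKM at irradiated day 3, and 0.425 and 1.22 FPKM at control day 6, against 1.99 and 1.39 FPKM at control day 3, a difference of 2.63 ± 0.62 (adjusted p = 0.344, limma-trend).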

How the results depend on the processing

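The number of genes past the adjusted threshold between day 6 and day 3, 6 as reported, depended on the setting. It was 1 with a pseudocount of 0.1, 7 with a pseudocount of 5 (5 higher, 2 lower), 36 with no filter on low values (23 higher, 13 lower), 2 with a minimum of 5 FPKM, 3 with the filter over all 17 libraries, 12 with median-of-ratios scaling, 13 with quantile normalization, 0 with array quality weights, 3 with limma-voom, 1 with the 9 control libraries and 0 with the 4 libraries alone. Leaving out 1 library gave 0 to 20, with 0 without control day 3 replicate 3 or control day 6 replicate 1, 1 without control day 3 replicate 1, 3 without control day 6 replicate 2 or irradiated day 3 replicate 3 and 20 without either irradiated day 6 library. The lone library of a group was then assumed to vary like the other groups. The number of genes whose change differed between irradiated and control wounds, 0 as reported, was 9 with no filter and 0 to 38 with 1 library left out, 38 being without irradiated day 6 replicate 3. The median over all genes was -0.13 with scaling to nuclear genes and 0.00 with median-of-ratios scaling. Of 2720 values of named genes under alternatives, 14 passed that had not and 65 no longer passed. All 65 belonged to the 6 genes that passed as reported, the only ones that could stop passing. Another 68 values changed sign, none of them past the threshold in either setting. A replicate block, the labels' replicate number as a factor over all 17 libraries, was chosen after seeing the data and gave 2 genes past the threshold (Klk14 and Mcpt8) and 0 for the difference between arms. Control day 6 and day 3 share only the number 1. Same-numbered libraries of different groups deviated from their group means with r of -0.329 to 0.514 (18 of 41 pairs over 0.1). Their median r was 0.06, against -0.0304 for libraries with different numbers. Of 17 libraries, 9 correlated best with their own number. Whether the number marks a shared batch or animal was not tested. Mcpt8, Klra8, Klra7 and Gm37857 had at most 132 fragments in any of the 4 compared libraries, and no other depth was run.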
